A study of Mus musculus with 12 samples.

Results

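8 genes of goblet cells and their mucus were followed through the mouse duodenum under a high-fat diet and a drug that activates the pregnane X receptor (PXR). They are Muc2, Tff3, Clca1, Fcgbp, Agr2, Zg16, Spdef and Spink4, taken as a fixed list of symbols. All 8 were found in both deposited tables, among 26121 genes that stand in both. Groups of 3 libraries each came from C57BL/6N mice. HFD PCN mice had a high-fat diet (HFD) and pregnenolone 16α-carbonitrile (PCN, a ligand of rodent PXR) at 50 mg/kg into the peritoneum on 4 days. HFD Vehicle mice had the same diet and injections of 30% DMSO in corn oil. HFD mice had that diet and Chow mice had regular chow, both labelled with no treatment. Feeding started when mice were 6 weeks old and lasted 18 weeks. Nothing in the labels beyond a number per library says that libraries came from separate animals, so the p-values may measure technical spread only.

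Goblet cells are secretory cells of the intestinal epithelium that release the gel covering it. The gel is a network of the mucin Muc2, folded and cross-linked by disulphide bonds in the endoplasmic reticulum, packed into granules and expanded on release. Other goblet cell products bind to that network, cut it or act on microbes within it. In the duodenum goblet cells are scattered among far more numerous absorptive enterocytes, and the mucus is a loose single layer.

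Total counts were 4676718 to 20684369 per library. Vil1, a brush border gene, stood at 1172 to 2390 CPM (counts scaled to library size, with TMM factors) and albumin at 0.11 to 1.16 CPM, although the extraction protocol in the labels names liver. The libraries HFD Vehicle 23 and HFD Vehicle 50 stood apart, with 1832 and 1487 CPM of the chaperone gene Hsp90aa1, against 62.4 to 424 CPM in the other 10 libraries. In HFD Vehicle 23, mitochondrial ribosomal RNA took 33.6% of counts, against 8.69% to 19.2% elsewhere. The 12 pan-epithelial genes summed to 3942 and 4928 CPM in HFD Vehicle 23 and 50 and to 3999 CPM in HFD 4, against 5483 to 7250.4 CPM in the other 9 libraries. The part of these differences in the results below was not tested. TMM-scaled fold changes of or against HFD Vehicle are therefore also given without HFD Vehicle 23 and 50 where that moves them by over 1.5 times, in fits that leave 1 vehicle library and assume that it varies like the others.

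Promoter sequences from RefSeq (GRCm38.p6) were matched for 4 of the 8 genes, Muc2, Fcgbp, Agr2 and Spdef. The 250 bases before the start of 3 of them are shown, because Muc2 and Fcgbp varied together across libraries and Spdef, the transcription factor of the list, had the largest difference between diets. Capitals mark matches on either strand to 6 motifs that were searched: the TATA box TATAAA, the E-box CAGCTG, the FOXA motif TGTTTAC, the SPDEF-type ETS motif CCGGAT, the CDX motif TTTATAG and the KLF motif CACCC.
Muc2 (chr7:141690090-141690339, + strand): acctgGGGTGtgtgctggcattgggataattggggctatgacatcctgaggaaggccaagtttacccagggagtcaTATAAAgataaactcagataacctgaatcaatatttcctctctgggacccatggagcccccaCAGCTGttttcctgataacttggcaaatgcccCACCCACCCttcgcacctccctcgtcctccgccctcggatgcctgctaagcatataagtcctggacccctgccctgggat
Fcgbp (chr7:28070986-28071235, + strand): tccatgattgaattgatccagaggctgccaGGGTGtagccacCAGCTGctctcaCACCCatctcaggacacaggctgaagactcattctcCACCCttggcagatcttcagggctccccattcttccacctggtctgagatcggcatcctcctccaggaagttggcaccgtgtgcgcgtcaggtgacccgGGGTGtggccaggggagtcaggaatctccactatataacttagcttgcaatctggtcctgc
Spdef (chr17:27728952-27729201, - strand): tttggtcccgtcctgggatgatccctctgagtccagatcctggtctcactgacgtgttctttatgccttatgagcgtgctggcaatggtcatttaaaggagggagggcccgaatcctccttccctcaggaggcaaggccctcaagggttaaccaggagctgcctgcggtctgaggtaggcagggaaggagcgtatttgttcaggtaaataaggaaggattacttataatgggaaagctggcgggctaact
In Muc2 the match to the letters TATAAA began 174 bases before the start and the E-box match 112 bases before it. Of its 3 KLF matches, 2 overlap by 1 base. Only exact letters were searched, so other TATA-like stretches stay in lower case. Fcgbp held an E-box match 208 bases before the start and 4 KLF matches. The window of Agr2, which is not shown, held 2 KLF matches, and that of Spdef held no match to any of the 6. Of the 32851 RefSeq promoters of the same length, 12.4% held TATAAA, 13.0% held CAGCTG, 52.0% held CACCC, 4.94% held CCGGAT, 3.17% held TGTTTAC and 3.21% held TTTATAG. These matches describe letters and are not known to be bound.

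The 8 genes together took 0.756% (HFD PCN 11) to 1.32% (HFD 38) of the raw counts of a library. They summed to 8431 to 10964 CPM in HFD PCN, 9928 to 13251 CPM in HFD Vehicle, 8619 to 12735 CPM in HFD and 9073 to 11281 CPM in Chow libraries, and the ranges of all 4 groups overlap. Fcgbp alone made up 57.0% to 72.9% of that sum and Muc2 13.8% to 18.4%. Levels of different genes were compared per kilobase of exon. On that scale (CPM per kb, median of 12 libraries) the order was Tff3 at 751, Zg16 at 650.2, Fcgbp at 623, Clca1 at 266, Muc2 at 239, Spink4 at 106, Agr2 at 53.7 and Spdef at 3.06. Ranges over libraries overlapped between Tff3 (427 to 979), Zg16 (404 to 894) and Fcgbp (458 to 921), and also between Clca1 (127 to 334) and Muc2 (179 to 295), and Spink4 (69.2 to 194) overlapped Clca1, Muc2 and Agr2 (35.0 to 81.1). The order of Tff3, Zg16 and Fcgbp, and that of Clca1 and Muc2, changed from library to library. Despite overlapping ranges, Muc2 was above Spink4 and Spink4 above Agr2 within every library. Muc2 and Spink4 were closest in HFD PCN 5 (215.6 against 193.9). Spink4 and Agr2 were closest in HFD PCN 27 (69.2 against 59.6). Spdef (2.33 to 7.18) lay below every other gene of the list in every library. Over the 12 libraries the highest CPM was 1.65 times the lowest for Muc2, the smallest such ratio of the list, and 3.09 times for Spdef, the largest.

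**Figure D1:**
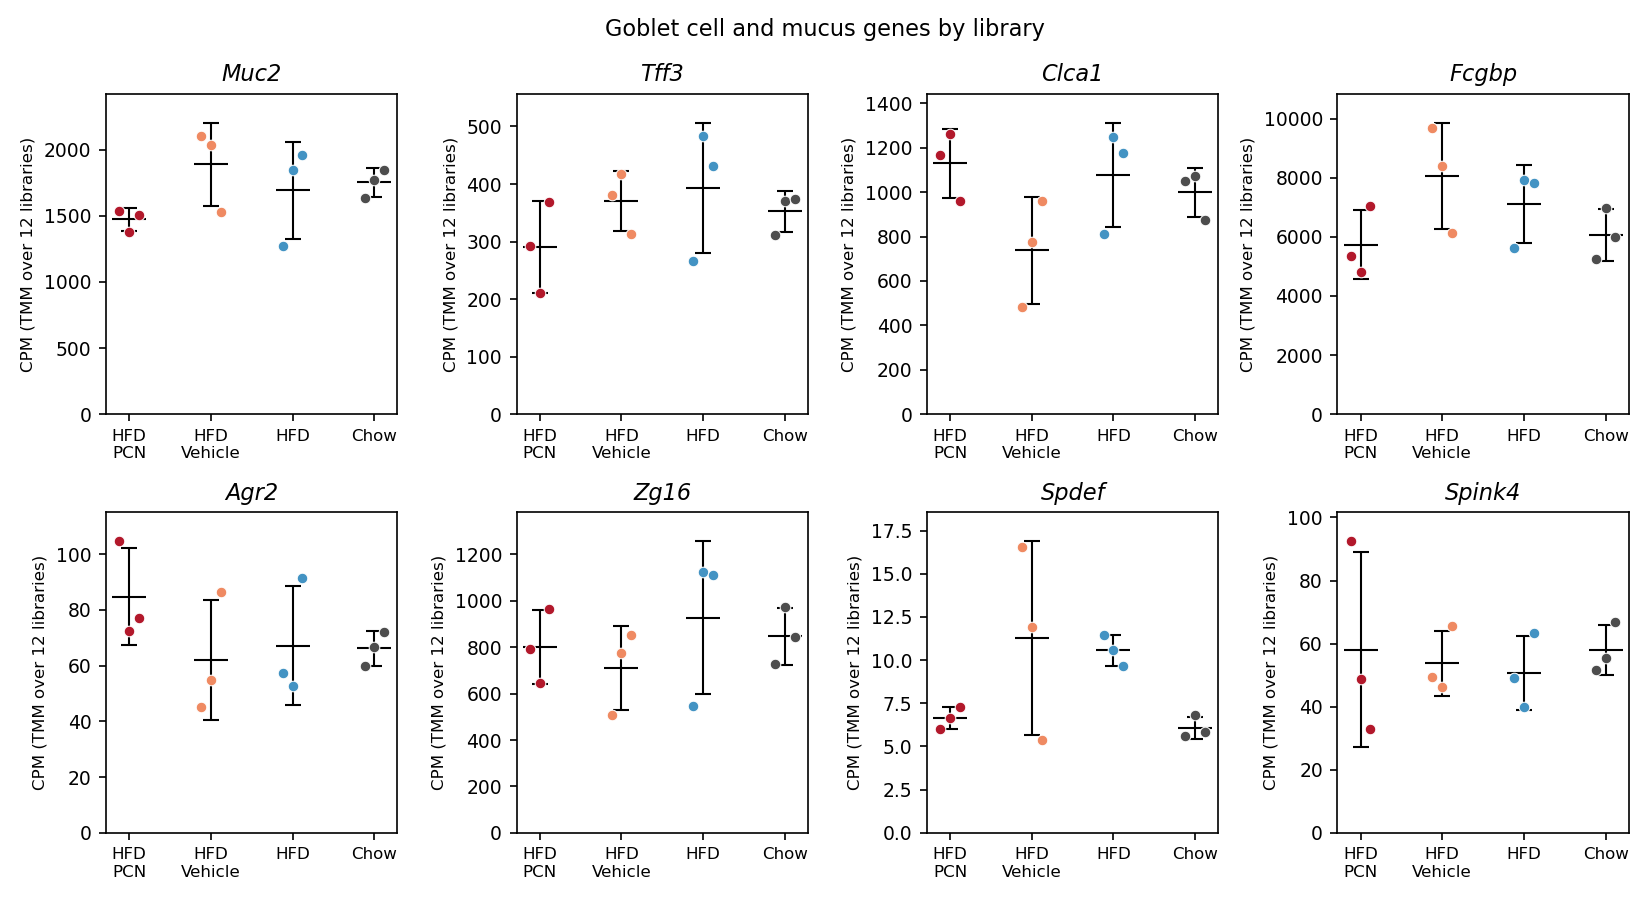
Level of each gene in CPM (vertical axes, starting at 0, TMM-scaled over 12 libraries) by group. Points are libraries, the horizontal bar is the mean and the error bar is the SD (n = 3 per group). Spdef stood at 9.66 to 11.4 CPM in HFD and at 5.60 to 6.82 CPM in Chow libraries. HFD Vehicle spans a wide range for Spdef, Clca1 and Fcgbp.

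The first comparison asked what the diet did to these genes. On HFD against Chow none of the 8 was called by edgeR's quasi-likelihood test, where 10 of 15278 genes were called (0.0655%), nor by DESeq2 or limma-voom. Muc2, Tff3, Clca1, Fcgbp, Agr2, Zg16 and Spink4 overlapped between the groups, with fold changes of 0.87 to 1.17. Spdef was the exception in its values, at 1.72 times its Chow level on HFD, without overlap. In all, 1 of 8 members did not overlap between groups, against 15.9% of genes with a mean of at least 1 CPM, and 1 of 8 had an unadjusted p under 0.05, against 10.3% of genes tested. Both shares are near the background.

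The structural and secreted components of the gel came first. Muc2 (ENSMUSG00000025515, GRCm38 chromosome 7, 141690340 to 141754693, + strand), the gel-forming mucin, had 1273, 1844 and 1957 CPM in HFD libraries 4, 30 and 38, against 1632, 1774 and 1849.7 CPM in Chow libraries 8, 17 and 19. The HFD values lay on both sides of the Chow range. The log2 fold change was -0.06 (SE 0.24, 95% interval -0.58 to 0.46, edgeR adjusted p = 0.943), which as a fold is an interval of 0.667 to 1.38.

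Fcgbp (ENSMUSG00000047730, chromosome 7, 28071236 to 28120862), a large protein with von Willebrand factor type D domains that is bound to the Muc2 network, had 5606, 7934 and 7815 CPM on HFD, against 5235, 6961 and 5988 CPM on Chow. Libraries HFD 30 and 38 were above all Chow libraries and HFD 4 was within their range. Its log2 fold change was 0.22 (SE 0.30, 95% interval -0.43 to 0.87). As a share of the summed level of the 8 genes, Fcgbp took 61.7% to 65.0% in HFD and 57.7% to 61.7% in Chow libraries, ranges that all but touch. The Muc2 share was 14.5% to 15.5% in HFD and 15.7% to 18.4% in Chow libraries. In HFD PCN libraries, on the same diet, Fcgbp took 57.0% to 64.3% and Muc2 13.8% to 16.4%. In HFD Vehicle libraries Fcgbp took 61.6% to 72.9% and Muc2 15.4% to 16.3%. These shares were looked at after the values were seen and were not tested.

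Tff3 (ENSMUSG00000024029, chromosome 17, 31125306 to 31129646), a trefoil peptide co-secreted with the mucin and known for epithelial repair, had 266, 483 and 432 CPM on HFD, against 311, 371 and 375 CPM on Chow. Its log2 fold change was 0.15 (SE 0.22). Zg16 (ENSMUSG00000049350, chromosome 7, 127050156 to 127087328), a lectin that binds peptidoglycan of Gram-positive bacteria, had 546, 1123 and 1113 CPM on HFD, against 727, 972 and 844 CPM on Chow. For both genes HFD 4 was the lowest of the 6 libraries and HFD 30 and 38 were the highest. The genes Gm22747 and Gm44939 lie within the span of Zg16 on the opposite strand and share no exon base with it.

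Clca1 (ENSMUSG00000028255, chromosome 3, 145003817 to 145032776), a secreted metalloprotease that cleaves Muc2 and loosens the gel, had 809.6, 1248 and 1175 CPM on HFD, against 1049.6, 1073 and 874 CPM on Chow (log2 fold change 0.10, SE 0.23). Agr2 (ENSMUSG00000020581, chromosome 12, 35992907 to 36004087), the protein disulphide isomerase of the endoplasmic reticulum that mucin folding needs, averaged 67.1 ± 21.3 CPM on HFD and 66.1 ± 6.24 CPM on Chow (SD, n = 3 each). Spink4 (ENSMUSG00000028415, chromosome 4, 40920052 to 40931395), a Kazal-type protease inhibitor of goblet cells, averaged 50.7 ± 11.8 CPM on HFD and 58.0 ± 7.89 CPM on Chow. None of the 3 differed by more than the spread between libraries.

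Spdef (ENSMUSG00000024215, chromosome 17, 27714352 to 27728951, - strand), the ETS family transcription factor that drives goblet cell maturation, had 11.4, 10.6 and 9.66 CPM in HFD libraries 4, 30 and 38, against 5.60, 6.82 and 5.83 CPM in Chow libraries 8, 17 and 19. Every HFD library was above every Chow library, on counts of 51 to 181 reads on HFD and 47 to 96 reads on Chow. The log2 fold change was 0.79 (SE 0.22, 95% interval 0.31 to 1.27), with an unadjusted p of 0.00411 and an adjusted p of 0.302 by edgeR's test over all genes. It was thus not called, and its adjusted p ranged from 0.140 to 0.991 over the alternatives, with log2 fold changes of 0.70 to 0.87. The authors' deposited table gave Spdef a log2 fold change of 0.64 with an adjusted p of 0.2727. In that same table the other 7 genes had log2 fold changes of -0.18 to 0.19.

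**Figure D2:**
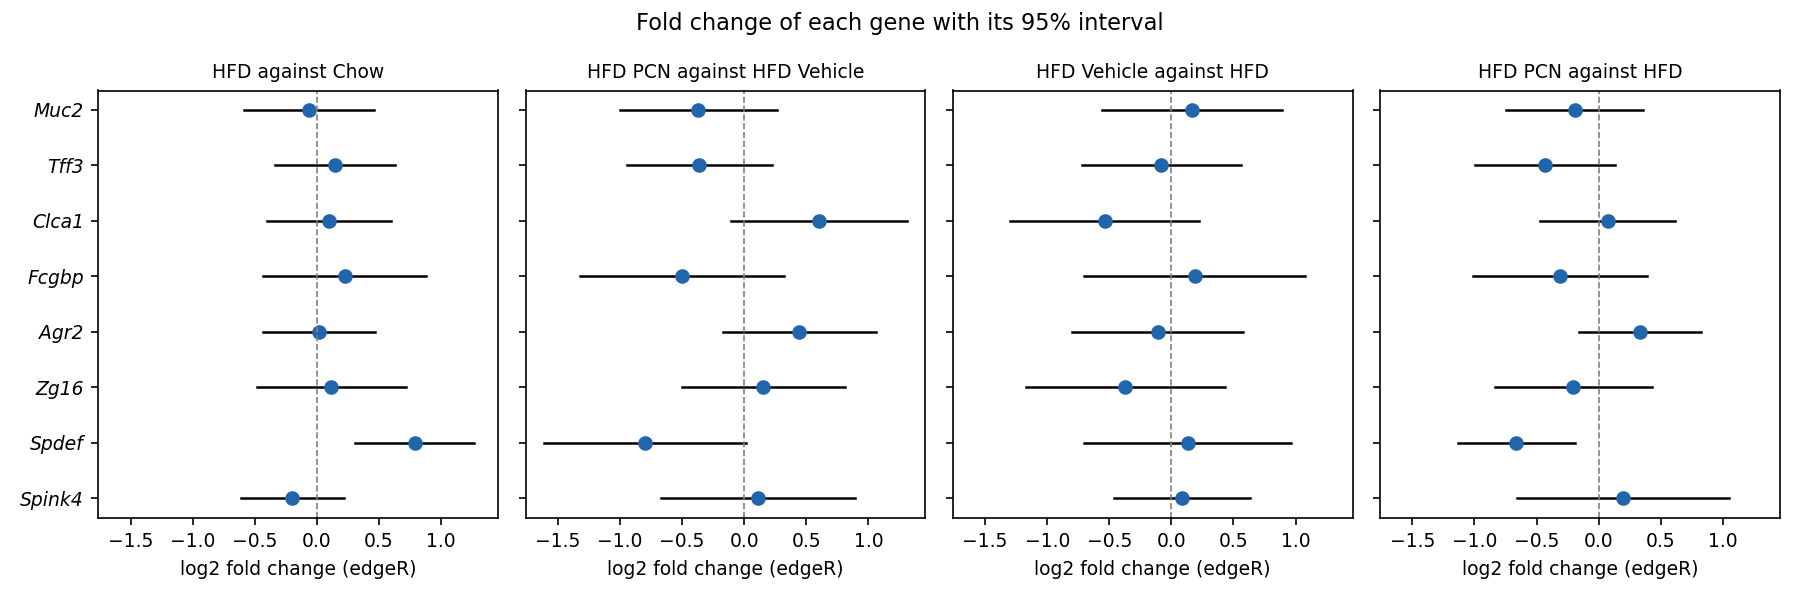
Log2 fold change of each gene by edgeR (points) with its 95% interval (lines) in 4 comparisons, first group over second. The dashed line marks 0. The interval excludes 0 for Spdef in HFD against Chow (0.31 to 1.27) and in HFD PCN against HFD (-1.14 to -0.19), and for no other gene or comparison. No gene passed the adjusted threshold.

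The second comparison asked what PCN did on top of the diet. On HFD PCN against HFD Vehicle none of the 8 was called by edgeR's test, where 10 of 16110 genes were called (0.0621%). The list did not move one way: Clca1, Agr2, Zg16 and Spink4 had positive and Muc2, Tff3, Fcgbp and Spdef negative fold changes, and the median log2 fold change was -0.13, against -0.01 over all genes tested. Without overlap stood 1 of 8 (Clca1), against 20.2% of genes with a mean of at least 1 CPM, and 0 of 8 had an unadjusted p under 0.05, against 17.9% of genes tested by edgeR. DESeq2 gave 2 with an unadjusted p under 0.05, against 17.6% of genes tested. It also called none of the 8, and 320 of 16110 genes in all.

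Clca1 had 1167, 1260.2 and 960 CPM in HFD PCN libraries 5, 11 and 27, against 481, 778 and 958 CPM in HFD Vehicle libraries 23, 50 and 55. The groups were separated only by the small gap between HFD PCN 27 and HFD Vehicle 55. The log2 fold change was 0.60 (SE 0.32, 95% interval -0.11 to 1.31, edgeR adjusted p = 0.325). Without HFD Vehicle 23 and 50 it was 0.21, and across all alternatives it stayed positive at 0.21 to 0.85.

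Spdef had 6.03, 6.63 and 7.27 CPM in HFD PCN libraries, against 16.6, 11.9 and 5.36 CPM in HFD Vehicle libraries 23, 50 and 55. Both libraries high in Hsp90aa1 were high in Spdef, and HFD Vehicle 55 was the lowest of all 12 libraries, on 27 reads. The log2 fold change was -0.80 (SE 0.36, edgeR adjusted p = 0.283), it was -0.44 without HFD Vehicle 23 alone, and it turned to 0.27 without HFD Vehicle 23 and 50. Without HFD Vehicle 55 it was -1.10 with an edgeR adjusted p of 0.0138. In that fit 3697 of 16789 genes passed (22%), and 2 of the 8 members, a share near that of all genes.

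The other of these was Agr2, with 105, 72.4 and 77.0 CPM in HFD PCN libraries, against 45.2, 54.7 and 86.4 CPM in HFD Vehicle libraries 23, 50 and 55. HFD Vehicle 55 lay within the HFD PCN range and the other vehicle libraries below it. In the edgeR fit the log2 change of Agr2 was 0.44 (SE 0.27, adjusted p = 0.388), with 0.77 (edgeR adjusted p = 0.0365) without HFD Vehicle 55 and -0.06 without HFD Vehicle 23 and 50.

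Muc2 had 1536, 1376 and 1509 CPM in HFD PCN libraries, against 2104, 2036 and 1530.3 CPM in HFD Vehicle libraries 23, 50 and 55. The HFD PCN libraries lay close together, and only HFD Vehicle 55 overlapped them. In edgeR this was a log2 fold change of -0.37 (SE 0.28, adjusted p = 0.470), with an upper 95% bound of 0.26, and -0.09 without HFD Vehicle 23 and 50. Fcgbp had 5351, 4809 and 7045 CPM in HFD PCN libraries, against 9666, 8399.6 and 6116 CPM in HFD Vehicle libraries, a log2 fold change of -0.50 (SE 0.37) that was -0.13 without HFD Vehicle 23 and 50. Tff3 averaged 291 ± 79.7 CPM in HFD PCN and 370.4 ± 52.6 CPM in HFD Vehicle (SD, n = 3 each). Its log2 fold change of -0.36 (SE 0.26) was -0.14 without HFD Vehicle 23 and 50 and -0.17 without HFD PCN 11.

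Zg16 averaged 801 ± 159 CPM in HFD PCN and 712 ± 181 CPM in HFD Vehicle, a log2 fold change of 0.16 that was -0.12 without HFD Vehicle 23 and 50. Spink4 had 92.5, 48.9 and 33.0 CPM in HFD PCN libraries 5, 11 and 27, against 49.5, 46.2 and 65.6 CPM in HFD Vehicle libraries, so that HFD PCN held both the highest and the lowest value of all 12 libraries. Its log2 fold change was 0.11, and -0.20 without HFD Vehicle 23 and 50. In the authors' deposited table the 8 genes had log2 fold changes of -0.66 (Spdef) to 0.56 (Clca1) in this comparison, and their lowest adjusted p was 0.4021, for Clca1.

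In bulk RNA, fewer goblet cells and less RNA per goblet cell cannot be told apart. To account for the share of epithelium in the tissue, which does not resolve that, levels were also set against the epithelium, as log2 CPM minus the mean log2 CPM of 12 pan-epithelial genes such as Epcam and Cdh1. On this scale Muc2 stood at 2.14 to 2.24 in HFD PCN libraries and at 2.26, 2.91 and 3.24 in HFD Vehicle libraries 55, 50 and 23. These ranges did not overlap, by the narrow gap between HFD PCN 11 and HFD Vehicle 55. Every other gene of the list overlapped in that comparison. The share of all genes without overlap on this scale was not computed. In HFD libraries Muc2 stood at 2.42 to 2.58 and in Chow libraries at 2.53 to 2.61. In HFD PCN against HFD, Muc2, Tff3 and Spdef were lower without overlap on this scale. Tff3 stood at -0.47 to 0.19 in HFD PCN and at 0.24 to 0.63 in HFD libraries. Spdef stood at -5.83 to -5.44 in HFD PCN and at -5.23 to -4.21 in HFD libraries. Without overlap, Clca1 was lower in HFD Vehicle than in HFD, and Spdef was higher in HFD than in Chow. Scaled to these genes in edgeR, the log2 fold change of Muc2 in HFD PCN against HFD Vehicle was -0.66 (adjusted p = 0.246). This scaling shifts the median log2 fold change of all genes to -0.28 in that comparison, against -0.01 with TMM. On the same scale Clca1 overlapped between HFD PCN and HFD Vehicle. Zg16 and Spink4 turned negative under it in that comparison, at -0.07 and -0.16.

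The HFD libraries labelled with no treatment give a further setting for both injected groups. These libraries are shared with the comparisons above, so the values stand side by side only. On HFD Vehicle against HFD none of the 8 genes and 0 of 16255 genes in all were called by edgeR (0%), while 953 genes had an unadjusted p under 0.05 and DESeq2 called 29. The lowest adjusted p of the 8 was 0.803, for Clca1, which averaged 739 ± 241 CPM in vehicle-injected and 1078 ± 235 CPM in HFD libraries (SD, n = 3 each). Its log2 fold change was -0.54, against -0.14 without HFD Vehicle 23 and 50 and -0.30 without HFD Vehicle 23 alone. Without both libraries Zg16 was at -0.09, against -0.37 with all 6, Tff3 at -0.30, against -0.08, and Spink4 at 0.39, against 0.08. Muc2, Fcgbp and Agr2 changed sign, to -0.12, -0.19 and 0.39. Without overlap stood 0 of 8, against 9.37% of genes with a mean of at least 1 CPM, and 0 of 8 had an unadjusted p under 0.05, against 5.86% of genes tested. Spdef had a log2 fold change of 0.13 there and -0.94 without HFD Vehicle 23 and 50.

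On HFD PCN against HFD none of the 8 was called by edgeR, where 52 of 15982 genes were called (0.325%). Spdef had 6.03 to 7.27 CPM in HFD PCN libraries, against 9.66 to 11.4 CPM in HFD libraries, without overlap. Its log2 fold change was -0.66 (SE 0.22, 95% interval -1.14 to -0.19, unadjusted p = 0.00971, edgeR adjusted p = 0.180), and without overlap stood 1 of 8 members against 23.4% of genes with a mean of at least 1 CPM. An unadjusted p under 0.05 was found for 1 of 8, against 18.2% of genes tested. Clca1 averaged 1129 ± 154 CPM in HFD PCN and 1078 ± 235 CPM in HFD. Tff3 had the next largest negative value, with a log2 fold change of -0.43 (SE 0.26).

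The genes did not vary as a block across the 12 libraries. Pearson's r of log2 CPM over the 28 pairs of genes ranged from -0.67 (Agr2 and Spdef) to 0.82 (Tff3 and Fcgbp), with a median of 0.08. Muc2, Tff3 and Fcgbp correlated with each other at 0.80 to 0.82, the only 3 pairs above 0.8. The correlations of Muc2 with Clca1 and Agr2 were -0.36 and -0.33, and turned to 0.32 and 0.06 without HFD Vehicle 23 and 50. In those 10 libraries Zg16 had an r of 0.88 with Tff3, 0.87 with Fcgbp and 0.84 with Muc2, against 0.59, 0.17 and 0.26 with all 12. Within the trio Muc2 and Fcgbp then stood at 0.67, Muc2 and Tff3 at 0.84, and Tff3 and Fcgbp at 0.91. The r of Clca1 with Fcgbp then was 0.13, against -0.53 with all 12, that of Clca1 with Spdef 0.03, against -0.61, and that of Agr2 with Spdef -0.42. Points share their group, depth and scaling, and these values are descriptions without a test.

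**Figure D3:**
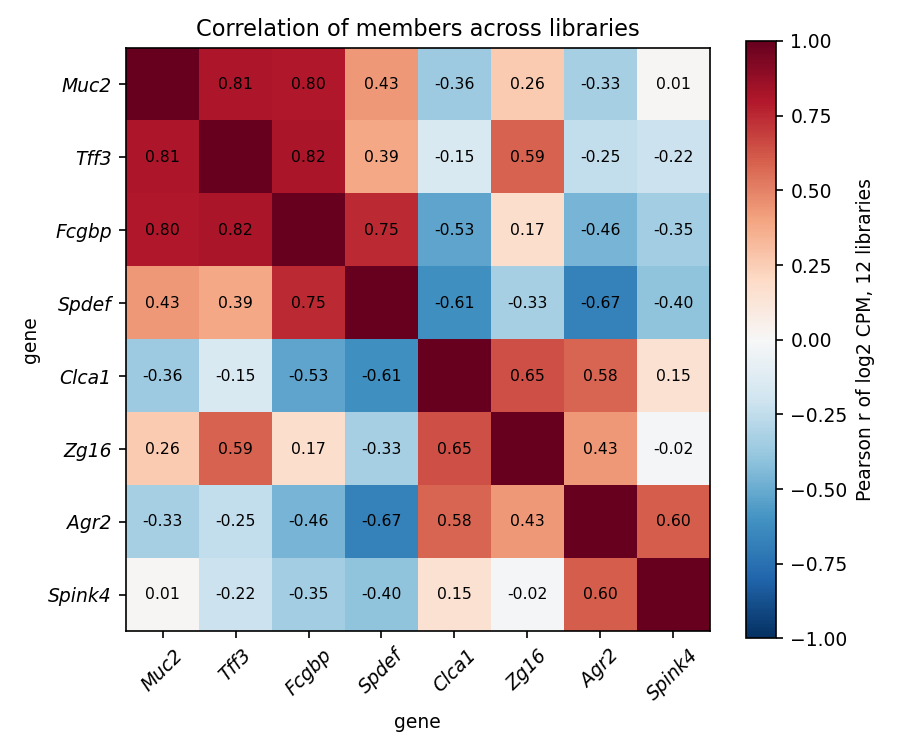
Pearson's r of log2 CPM between each pair of genes over 12 libraries (colour scale from -1 to 1, value printed in each cell). Muc2, Tff3 and Fcgbp form a block at 0.80 to 0.82, and Spdef and Clca1 stand at -0.61. Without HFD Vehicle 23 and 50, Muc2 and Fcgbp stood at 0.67 and Spdef and Clca1 at 0.03.

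Ratios of raw counts within a library do not depend on scaling. They were chosen after the values were seen and were not tested. Clca1 to Muc2 was 0.760, 0.916 and 0.636 in HFD PCN libraries 5, 11 and 27 and 0.229, 0.382 and 0.626 in HFD Vehicle libraries 23, 50 and 55. In HFD libraries it was 0.600 to 0.677 and in Chow libraries 0.473 to 0.643. HFD Vehicle 23 and 50 were thus below all other libraries, and HFD Vehicle 55 was inside the range of HFD and Chow. Zg16 to Muc2 was 0.241 and 0.381 in HFD Vehicle 23 and 50, against 0.429 to 0.639 in the other 10 libraries. Tff3 to Muc2 varied less, from 0.153 to 0.262. Fcgbp to Muc2 was 3.99 to 4.40 in HFD libraries and 3.21 to 3.92 in Chow libraries, without overlap. In HFD PCN libraries 5, 11 and 27 it was 3.48, 3.50 and 4.67, and in HFD Vehicle libraries 4.00 to 4.59. HFD PCN 5 and 11, on the same diet, were thus inside the Chow range. How often ratios of other genes separate HFD from Chow was not counted.

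**Figure D4:**
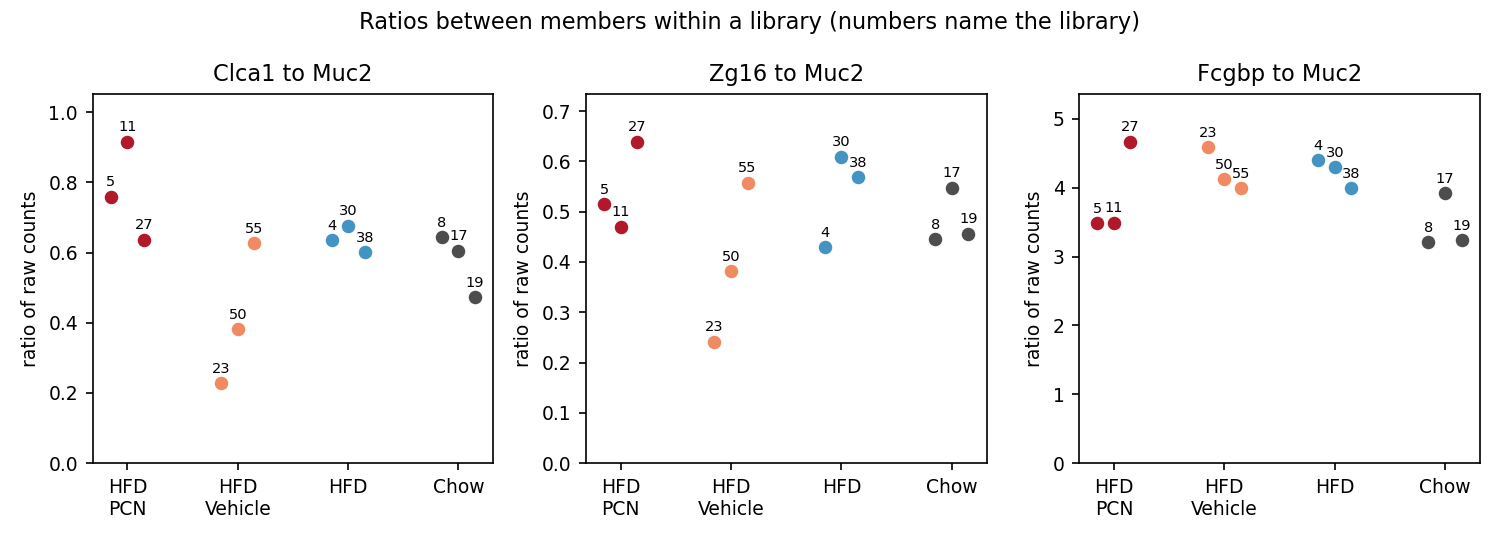
Ratio of raw counts of Clca1, Zg16 and Fcgbp to those of Muc2 (vertical axes, starting at 0) in each library by group, with the library number above each point. HFD Vehicle 23 and 50 have the lowest ratios of Clca1 (0.229 and 0.382) and Zg16 (0.241 and 0.381).

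By the rule of likeness, the 5 genes whose log2 CPM was closest to that of Muc2 over the 12 libraries, of 9892 ranked, were Faah (r 0.90), Pak4 (0.90), Bcr (0.88), Lnx1 (0.86) and Plekhg6 (0.86). Without HFD Vehicle 23 and 50 their r was 0.91, 0.85, 0.83, 0.80 and 0.77. Closest to the mean of the 8 standardised genes were Map2k1 (0.93), Ltbr (0.90), Trib3 (0.89), Lsr (0.88) and Jup (0.87). Each was the highest of many, over libraries that share groups.

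The rest of the mucus pathway was read from 5 lists of related genes. In HFD against Chow and in HFD PCN against HFD Vehicle, no gene of these lists was called by edgeR over all genes. DESeq2 called St3gal1 and Gcnt3 in HFD against Chow, where it called 138 of 15278 genes in all. The values of the leading genes are otherwise descriptions. Other mucins held 5 tested genes in HFD against Chow, 4 positive and 1 negative with a median log2 fold change of 0.11. Of the 4 tested in HFD PCN against HFD Vehicle, 2 were positive and 2 negative, with a median of 0.05, and 1 was positive and 3 negative without HFD Vehicle 23 and 50. The membrane mucin Muc3 averaged 2404 ± 384 CPM in HFD PCN and 1168 ± 671 CPM in HFD Vehicle (log2 fold change 1.03, SE 0.43, edgeR adjusted p = 0.266), with 0.32 without HFD Vehicle 23 and 50. Muc13, another membrane mucin, averaged 1470 ± 120 CPM in HFD PCN and 1086 ± 520 CPM in HFD Vehicle, a log2 fold change of 0.43 that turned to -0.12 without those libraries. Muc4, also a membrane mucin, ran the other way, with 49.4 ± 5.22 CPM in HFD PCN and 82.1 ± 46.7 CPM in HFD Vehicle (log2 fold change -0.74, and -0.43 without those libraries). The remaining one, Muc3a, had a log2 fold change of -0.33, and -0.15 without them.

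Muc5ac and Retnlb were looked at after their counts were seen. The gastric mucin Muc5ac had 12 and 26 counts in HFD Vehicle 23 and 50 and 0 in the other libraries of its table. Retnlb, a goblet cell antibacterial product known chiefly from the colon, had at most 4 counts in any library.

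Enzymes that build the O-glycans of mucins held 21 tested genes in HFD against Chow, 12 with positive and 9 with negative fold changes, and a median log2 fold change of 0.15, against 0.00 over all genes. St3gal1, a sialyltransferase that caps core O-glycans, averaged 47.9 ± 1.87 CPM in HFD and 25.0 ± 6.26 CPM in Chow (log2 fold change 0.94, SE 0.19, edgeR adjusted p = 0.154, DESeq2 adjusted p = 0.00675). Gcnt3, which branches mucin O-glycans, averaged 141 ± 51.3 CPM in HFD and 73.8 ± 16.5 CPM in Chow (log2 fold change 0.93, SE 0.25, edgeR adjusted p = 0.279, DESeq2 adjusted p = 0.0418). The sialyltransferase St3gal4 ran the other way, with 408 ± 119 CPM in HFD and 574 ± 72.3 CPM in Chow. Its log2 fold change was -0.50 (SE 0.23, edgeR adjusted p = 0.485). In HFD PCN against HFD Vehicle 22 were tested, 15 positive and 7 negative with a median of 0.33, against -0.01 over all genes. Without HFD Vehicle 23 and 50 they were 12 positive and 10 negative, with a median of 0.02. B4galnt2, which adds a terminal N-acetylgalactosamine, averaged 519 ± 102 CPM in HFD PCN and 265 ± 114 CPM in HFD Vehicle (log2 fold change 0.96, SE 0.36, edgeR adjusted p = 0.246), with 0.54 without those libraries. C1galt1, which makes the common core O-glycan, had a log2 fold change of 0.75, and 0.03 without them.

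Transcription factors of secretory and goblet fate held 11 tested genes in HFD against Chow, 4 positive and 7 negative with a median log2 fold change of -0.25, none with an unadjusted p under 0.05. Sox9, with the smallest p of these, averaged 9.74 ± 3.74 CPM in HFD and 14.8 ± 2.78 CPM in Chow. Its log2 fold change was -0.65 (SE 0.30, edgeR adjusted p = 0.486). Atoh1, the switch to secretory fate, averaged 7.34 ± 1.03 CPM in HFD and 8.85 ± 2.20 CPM in Chow. In HFD PCN against HFD Vehicle 12 were tested, 4 positive and 8 negative with a median of -0.34. Of these, 5 of 12 had an unadjusted p under 0.05 in edgeR, against 17.9% of all genes. Such a p was found for 1 of 4 other mucins and 4 of 22 O-glycan enzymes. It was found for 6 of 23 folding and granule genes and 5 of 22 other goblet cell markers. The median of the 12 fate factors was -0.04 without HFD Vehicle 23 and 50. Gfi1, which acts in goblet and Paneth precursors, averaged 2.02 ± 0.297 CPM in HFD PCN and 4.26 ± 1.16 CPM in HFD Vehicle (log2 fold change -1.12, SE 0.34, edgeR adjusted p = 0.231), with -0.70 without those libraries. Foxa3, a forkhead factor expressed in goblet cells, averaged 7.97 ± 1.08 CPM in HFD PCN and 14.9 ± 7.77 CPM in HFD Vehicle (log2 fold change -0.94, SE 0.37, edgeR adjusted p = 0.254), which turned to 0.12 without them.

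Genes of folding, disulphide formation and granules held 23 tested genes in both comparisons, with 11 positive and 12 negative and a median of -0.02 in HFD against Chow, and 9 positive and 14 negative and a median of -0.25 in HFD PCN against HFD Vehicle. Without HFD Vehicle 23 and 50 that median was -0.00094, with 11 positive and 12 negative. Qsox1, a secreted sulphydryl oxidase, averaged 53.5 ± 8.51 CPM in HFD and 33.9 ± 5.36 CPM in Chow (log2 fold change 0.66, SE 0.17, edgeR adjusted p = 0.256). It averaged 29.5 ± 7.54 CPM in HFD PCN and 53.6 ± 10.3 CPM in HFD Vehicle (log2 fold change -0.88, SE 0.24, edgeR adjusted p = 0.231), with -0.66 without those libraries. Tmed3, a carrier of cargo between endoplasmic reticulum and Golgi, had a log2 fold change of 0.80 in the same comparison (0.48 without them). Vamp8, a vesicle fusion protein of secretory granules, had one of 0.71 (0.25 without them). Other goblet cell markers held 22 tested genes in both comparisons, 11 positive and 11 negative with a median of -0.05 in HFD against Chow, and 7 positive and 15 negative with a median of -0.23 in HFD PCN against HFD Vehicle. They were 4 positive and 18 negative without HFD Vehicle 23 and 50, with a median of -0.19. Guca2a, the precursor of guanylin, averaged 15.9 ± 4.10 CPM in HFD PCN and 26.1 ± 3.36 CPM in HFD Vehicle (log2 fold change -0.72, SE 0.25, edgeR adjusted p = 0.240), with -0.66 without those libraries. Clca4b ran the other way, with 1312 ± 412 CPM in HFD PCN and 540 ± 319 CPM in HFD Vehicle (log2 fold change 1.27, SE 0.46, edgeR adjusted p = 0.242), and 0.56 without them. Bulk RNA does not show which cells express Clca4b, and its place among goblet cell markers was not tested.

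Other cell types differed between the same libraries. The 12 Paneth cell markers summed to 322 to 690.1 CPM in HFD PCN and to 666 to 3078 CPM in HFD Vehicle, with 3078 CPM in library 23 and 1358 CPM in library 50. All 12 had negative fold changes in HFD PCN against HFD Vehicle, and 0 were called by edgeR, against 0.0621% of all genes. DESeq2 called 7 of the 12, and 320 of 16110 genes in all. All 12 had an unadjusted p under 0.05 in edgeR, against 17.9% of all genes. Without HFD Vehicle 23 and 50 the 10 tested had a median log2 fold change of -0.64, against -2.22 for the 12 with them. The 12 enterocyte markers summed to 33168 to 37068 CPM in HFD PCN and to 12472 to 35249 CPM in HFD Vehicle, lowest in library 23. No marker of either list was at 0 in any library of HFD PCN or HFD Vehicle. Of the 4 Brunner gland markers, Dmbt1, which other epithelial cells also express, stood at 1260 to 2771 CPM and Egf at 0.568 to 2.21 CPM over the 12 libraries. Tff2 had 3 counts and Muc6 had 1 in all 6 libraries of HFD and Chow together. Neither was among the genes listed for HFD PCN and HFD Vehicle. The part of these cell types in the values of the 8 genes was not tested.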

How the data were processed

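RNA was sequenced from the duodenum in 12 libraries, 3 in each of 4 groups. Raw counts per Ensembl gene were deposited by the authors in 2 tables, each of 6 libraries with the result of their own comparison. The submitters' processing notes name the build GRCm38 (mm10) and the tools HTSeq, HISAT2 and DESeq2. Versions, the annotation release, the strand setting and read filters are not given in the sources used here. Annotation headers in both tables stand 1 column left of their values, and the values were read by position. Starts are counted from 0 there and from 1 here. No value column was left without a sample.

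Levels are CPM (counts scaled to library size) from the deposited counts of the 26121 genes in both tables, with TMM factors over the 12 libraries. Those genes hold 4283521 of the 4925123 counts of HFD 4 and 16272865 of the 16732793 counts of HFD 38, the largest losses. The main fit of HFD against Chow used all genes of its own table. A level per length divides CPM by the union of exons of GENCODE M21. Every fit used the 6 libraries of its comparison and all genes, in edgeR 4.0.16 in R 4.3.3 (filterByExpr, TMM, robust quasi-likelihood F-test), with Benjamini-Hochberg adjustment over all genes tested and calls at an adjusted p under 0.05. Comparisons of HFD PCN and HFD Vehicle with HFD joined raw counts of both tables. Standard errors were taken as the absolute log2 fold change over the root of F. The step was tested only on simulated counts with a fixed dispersion and large changes in genes of higher counts. That setting does not cover small changes, low counts or libraries that stand apart. Alternatives were DESeq2 1.42.0, limma-voom (limma 3.58.1), DESeq2 size factors, no filter on low counts, a fit of all 12 libraries, scaling to pan-epithelial genes, leaving out each library in turn, and leaving out HFD Vehicle 23 and 50 together. Total counts of 4676718 to 20684369 per library limit precision for Spdef, and intervals of fold changes cover the spread between libraries.

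The members and the other lists were chosen with earlier results of these data known. All 8 members are described. From each other goblet list the text names called genes and, of the up to 4 with the smallest unadjusted p, some or all, and adds Muc5ac and Retnlb, chosen after their counts were seen. The genes most like the members are the 5 with the highest Pearson r, among named genes of at least 5 CPM on average, leaving out T cell receptor and immunoglobulin segments, pseudogenes and predicted genes. A second identifier under the symbol St6galnac2 was left out. The log2 fold changes and p-values of the authors' deposited table are used only where that table is named.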

Additional observations from a re-analysis of the deposited data

How the results depend on the processing

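Of 400 refits of the 8 genes over 4 comparisons, 365 kept direction and side of the threshold, 2 passed it (Agr2 and Spdef in HFD PCN against HFD Vehicle without HFD Vehicle 55) and 33 changed sign. No paired analysis was possible because the groups share no replicate number. Depth limits Spdef most, with 27 reads in HFD Vehicle 55. Causes of the changes below were not tested.

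Genes called in HFD against Chow were 10 as reported, 2 with all 12 libraries in 1 fit, 138 by DESeq2, 6 by limma-voom, 351 with no filter on low counts, 28 scaled to pan-epithelial genes, and 4 to 63 without 1 library, the highest without HFD 38. In HFD PCN against HFD Vehicle they were 10 as reported, 34 with all 12 libraries, 320 by DESeq2, 843 with no filter, 2 without HFD Vehicle 23 and 50, and 0 to 3697 without 1 library, the highest without HFD Vehicle 55. Members called there were 0 to 2 without 1 library.

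Log2 fold changes that changed sign were these. In HFD against Chow, limma-voom gave -0.019 for Agr2 and -0.020 for Zg16. In HFD PCN against HFD Vehicle without HFD Vehicle 23 and 50, Agr2 was at -0.061, Zg16 at -0.12, Spdef at 0.27 and Spink4 at -0.20, and pan-epithelial scaling gave -0.065 for Zg16 and -0.16 for Spink4. In HFD Vehicle against HFD without HFD Vehicle 23 and 50, Muc2 was at -0.12, Fcgbp at -0.19, Agr2 at 0.39 and Spdef at -0.94, and pan-epithelial scaling gave 0.088 for Tff3. In HFD PCN against HFD that scaling gave -0.049 for Clca1.

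Without 1 library, HFD against Chow ranged from -0.16 to 0.078 for Muc2, -0.0097 to 0.34 for Tff3, -0.0057 to 0.24 for Clca1, -0.26 to 0.18 for Agr2 and -0.033 to 0.36 for Zg16. HFD PCN against HFD Vehicle ranged from -0.044 to 0.32 for Zg16 and -0.39 to 0.41 for Spink4. HFD Vehicle against HFD ranged from -0.0021 to 0.27 for Muc2, -0.30 to 0.080 for Tff3, -0.45 to 0.18 for Agr2, -0.23 to 0.41 for Spdef and -0.11 to 0.27 for Spink4. HFD PCN against HFD ranged from -0.075 to 0.18 for Clca1 and -0.32 to 0.48 for Spink4.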
